A study of Mus musculus with 6 samples.

Results

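The neurotrophin genes described here are Bdnf and Ntf3, which encode 2 ligands of the family, and Ntrk2, Ntrk3, Ngfr and Sort1, which encode the receptors TrkB, TrkC, p75 and sortilin. These 6 of 41388 genes counted in liver were selected from an earlier look at the same genotype contrast, so their values are given as a description, without p-values. All 6 were among the 17287 genes with enough reads to be tested. The samples were 3 control and 3 *Mttp-IKO* pools of liver RNA, each from 3 to 4 male C57BL/6 mice, so n counts pools, and the spread among single mice was not measured. All mice carried floxed Mttp alleles (Mttp f/f) and Villin Cre ERT2, a tamoxifen-activated Cre under an intestinal promoter. *Mttp-IKO* mice had received tamoxifen for 5 days, which deletes Mttp in the intestine and blocks chylomicron assembly. The control mice, called wild type in the labels, were littermates with the same alleles that had received vehicle. An effect of tamoxifen and one of the deletion therefore cannot be told apart. From 3 weeks after treatment, all mice were fed a methionine-choline-deficient (MCD) diet for 3 weeks, which causes steatosis and fibrosis, and they were 12 to 16 weeks old. Livers were taken after a fast of 4 h.

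Neurotrophins are secreted growth factors best known for keeping neurons alive. Each mature ligand binds its own Trk receptor tyrosine kinase, TrkB for BDNF and TrkC for NT-3, and all of them bind p75, a receptor of the TNF receptor family. The uncleaved proforms bind p75 together with sortilin, which in hepatocytes also sorts apolipoprotein B. In liver, p75 is known from hepatic stellate cells, the vitamin A-storing cells that become matrix-producing myofibroblasts in injury.

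The pools held 25271585 to 36238734 reads on genes, and a count of 0 allows up to 3 reads, that is 0.0828 to 0.119 CPM of the pool total, for counting error only. CPM is the count scaled to a fixed library total, elsewhere here with TMM factors, which adjust for differences in composition. The targeted gene itself, Mttp, was at 90.3, 185 and 175 CPM in the controls against 145, 128 and 160 CPM after deletion, which overlapped, and the Villin promoter does not direct the deletion to liver. Alb, which marks hepatocytes, took 40088 to 132094 CPM, so the tissue matched its label. Among the libraries, 2 stood apart most, and control pool 1 less so. Small RNA genes took 0.635% of the reads in *Mttp-IKO* pool 3 and 3.6% to 5.27% in the rest. Control pool 2 held 894 CPM of 8 skeletal muscle markers, against 116 CPM in control pool 1 and 1.09 to 1.64 CPM in the rest. The values of the 6 genes are also given without *Mttp-IKO* pool 3 and without control pool 2. Without control pool 1, the log2 fold changes were -4.59 for Ntrk2, -2.68 for Ngfr and -0.59 for Ntrk3. They were -1.83 for Bdnf, 1.99 for Ntf3 and -0.73 for Sort1.

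Promoter sequence is shown for Ntrk2, Ngfr and Ntf3, to show what lies at their starts. With all pools, these 3 genes were below an adjusted p of 0.05 by edgeR. The genes were selected from this same contrast, so that threshold only chose what to print and tests nothing. Ntf3 lost the call with any pool left out, and Ntrk2 and Ngfr lost it without *Mttp-IKO* pool 2. The windows reach from 250 bases before to 50 bases after a RefSeq transcription start (GRCm38.p6), 5′ to 3′ on the strand of the gene. Capitals mark matches, on either strand, to GGGCGG (the GC box), CACGTG or CAGCTG (E-boxes), which do not overlap each other here. The windows are chr13:58806319-58806618 for Ntrk2, chr11:95587649-95587948 for Ngfr, and chr6:126166695-126166994 and chr6:126164911-126165210 for the upstream and the downstream start of Ntf3.
Ntrk2: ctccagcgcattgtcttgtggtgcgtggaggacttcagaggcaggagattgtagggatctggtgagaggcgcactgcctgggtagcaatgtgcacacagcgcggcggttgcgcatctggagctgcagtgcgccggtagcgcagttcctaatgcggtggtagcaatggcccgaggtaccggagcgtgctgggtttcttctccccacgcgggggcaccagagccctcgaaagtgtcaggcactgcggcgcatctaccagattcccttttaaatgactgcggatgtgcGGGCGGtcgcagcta
Ngfr: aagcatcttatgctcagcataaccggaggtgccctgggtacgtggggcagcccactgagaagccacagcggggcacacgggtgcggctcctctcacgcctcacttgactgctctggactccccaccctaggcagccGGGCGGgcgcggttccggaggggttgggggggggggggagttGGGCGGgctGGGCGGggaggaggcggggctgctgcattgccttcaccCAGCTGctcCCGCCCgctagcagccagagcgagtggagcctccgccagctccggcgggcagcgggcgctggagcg
Ntf3, upstream start: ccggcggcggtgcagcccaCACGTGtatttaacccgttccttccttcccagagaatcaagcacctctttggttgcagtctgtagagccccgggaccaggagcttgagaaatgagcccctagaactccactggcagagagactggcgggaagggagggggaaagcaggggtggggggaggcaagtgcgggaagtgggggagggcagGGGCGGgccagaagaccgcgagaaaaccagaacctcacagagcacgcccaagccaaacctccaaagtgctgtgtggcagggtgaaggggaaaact
Ntf3, downstream start: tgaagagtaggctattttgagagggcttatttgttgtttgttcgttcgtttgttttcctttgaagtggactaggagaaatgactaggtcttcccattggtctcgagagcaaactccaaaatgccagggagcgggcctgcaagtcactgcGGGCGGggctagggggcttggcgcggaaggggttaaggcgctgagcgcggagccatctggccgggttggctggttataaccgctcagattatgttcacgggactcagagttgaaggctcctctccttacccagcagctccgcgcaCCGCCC

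All 4 windows held a GC box, with 4 matches in Ngfr, 2 at the downstream Ntf3 start and 1 in each of the others. Of 32851 promoter windows of this length, 35.7% held that motif. CAGCTG lay once in the Ngfr window and CACGTG once at the upstream Ntf3 start, motifs held by 16.3% and 7.15% of all windows. None of the 4 windows held TATAAA (the TATA box, in 13.6% of windows), TGACGTCA (the cAMP response element, 1.79%), TGANTCA (the AP-1 site, 7.81%) or GGAATG (the TEAD core, 14.7%). Bdnf had 7 such windows, one for each of several alternative starts, of which 2 held GGGCGG, 2 held GGAATG, 1 held TGANTCA and 1 held CAGCTG. The table held no entry for Ntrk3 or Sort1.

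The 2 ligands differed in opposite directions. Ntf3 (ENSMUSG00000049107; GRCm38 chr6:126101413-126166744, minus strand), which encodes neurotrophin-3, was covered by 19, 25 and 48 reads in control pools 1, 2 and 3, and by 151, 86 and 130 in *Mttp-IKO* pools 1, 2 and 3. In CPM these were 0.471, 0.692 and 1.5 against 4.86, 2.95 and 5.45. The control level was as close to 0 as those of Bdnf and Ntrk3, so the size of the difference rests on few control reads. Every *Mttp-IKO* pool lay above every control pool, and the lowest of them was 1.97 times the highest control. The mean was 0.887 ± 0.54 CPM in control and 4.42 ± 1.31 CPM in *Mttp-IKO* liver (SD, n = 3), 4.98 times higher, with a log2 fold change of 2.33 ± 0.46 (SE). It was 2.16 without control pool 2 and 2.15 without *Mttp-IKO* pool 3.

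Bdnf (ENSMUSG00000048482; chr2:109674700-109727007, plus strand), the gene of brain-derived neurotrophic factor, was close to 0 in all pools. It had 25, 46 and 25 reads in control and 6, 8 and 10 reads in *Mttp-IKO* liver. As levels these were 0.619, 1.27 and 0.780 CPM in control and 0.193, 0.274 and 0.419 CPM in *Mttp-IKO* liver. All 3 *Mttp-IKO* pools lay below all 3 control pools, and the highest value stood in control pool 2, the pool with the most skeletal muscle RNA. The log2 fold change was -1.60 ± 0.48 (SE, n = 3), -1.27 without that pool and -1.92 without *Mttp-IKO* pool 3. The part of muscle RNA in the Bdnf level was not tested.

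Because these ligands differ in length, they were compared per kilobase, as RPKM. The Ntf3 level was 3.31, 2.37 and 8.36 times the Bdnf level in control pools 1 to 3 and 110, 46.8 and 56.6 times in *Mttp-IKO* pools. Per length, NT-3 mRNA was thus the more abundant of the pair in each of the 6 pools. This rests on the exon lengths used, 1427 nt for Ntf3 and 6217 nt for all annotated exons of Bdnf. In CPM, Bdnf lay above Ntf3 in control pools 1 and 2 (0.619 against 0.471 and 1.27 against 0.692) and below it in the rest.

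**Figure D1:**
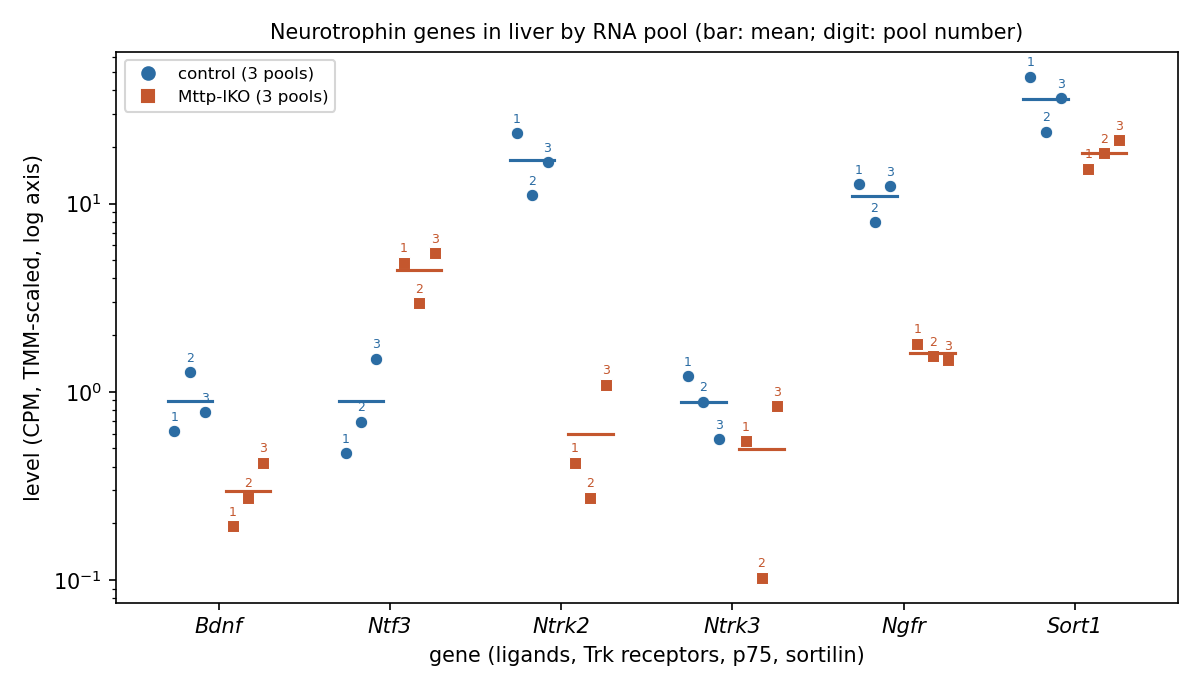
Level of each neurotrophin gene in each RNA pool, in TMM-scaled CPM on a log axis, for 3 control (circles) and 3 *Mttp-IKO* (squares) pools, with a bar at the mean and the pool number beside each point. Ntf3 lies higher in all *Mttp-IKO* pools, Ntrk2, Ngfr, Bdnf and Sort1 lie lower in all of them, and the Ntrk3 pools overlap.

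Of the Trk receptors, Ntrk2 differed most. Ntrk2 (ENSMUSG00000055254; chr13:58806596-59133970, plus strand), the TrkB gene, had 957, 400 and 532 reads in control pools and 13, 8 and 26 reads in *Mttp-IKO* pools. The levels were 23.7, 11.1 and 16.6 CPM in control and 0.419, 0.274 and 1.09 CPM in *Mttp-IKO* liver. The lowest control pool was 10.2 times the highest *Mttp-IKO* pool, so the groups were far from overlapping. In *Mttp-IKO* liver the gene was near 0, and the size of the fold rests on these few reads. The mean was 17.1 ± 6.33 CPM in control and 0.594 ± 0.435 CPM in *Mttp-IKO* liver (SD, n = 3), 28.8 times lower, with a log2 fold change of -4.89 ± 0.51 (SE). Of the *Mttp-IKO* pools, pool 3 was the highest, and without it the log2 fold change was -5.61. Without control pool 2, the lowest of the controls, it was -5.14. The annotation lists 10 Ntrk2 transcripts, 7 of them coding, and TrkB is known in a full-length form and in truncated forms without the kinase. The counts are of whole genes and do not separate these forms.

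Ntrk3 (ENSMUSG00000059146; chr7:78192362-78578408, minus strand), which encodes the NT-3 receptor TrkC, was near 0 in both groups. It had 49, 32 and 18 reads in control and 17, 3 and 20 reads in *Mttp-IKO* pools, that is 1.21, 0.886 and 0.561 CPM against 0.547, 0.103 and 0.838 CPM. The groups overlapped, and *Mttp-IKO* pool 2, with 3 reads, was at the count that 0 allows. The log2 fold change was -0.86 ± 0.64 (SE, n = 3). It ranged from -0.37 without *Mttp-IKO* pool 2 to -1.43 without *Mttp-IKO* pool 3, and was -0.89 without control pool 2. No difference in Ntrk3 was found beyond the spread between pools. Its ligand gene Ntf3 was, per length, 1.42, 2.87 and 9.79 times the level of Ntrk3 in control and 32.6, 105 and 23.9 times in *Mttp-IKO* pools. In CPM, not divided by length, Ntrk3 lay above Ntf3 in control pools 1 and 2 (1.21 against 0.471 and 0.886 against 0.692).

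Ngfr (ENSMUSG00000000120; chr11:95568818-95587735, minus strand), the p75 gene, had 512, 287 and 399 reads in control pools and 56, 45 and 35 reads in *Mttp-IKO* pools. The levels were 12.7, 7.95 and 12.4 CPM in control and 1.80, 1.54 and 1.47 CPM in *Mttp-IKO* liver. The *Mttp-IKO* pools lay close together, and the lowest control pool was 4.41 times the highest of them. The mean was 11 ± 2.67 CPM in control and 1.60 ± 0.177 CPM in *Mttp-IKO* liver (SD, n = 3), 6.87 times lower, with a log2 fold change of -2.78 ± 0.26 (SE). It was -2.98 without control pool 2 and -2.72 without *Mttp-IKO* pool 3. The annotation gives Ngfr 1 transcript.

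Sort1 (ENSMUSG00000068747; chr3:108284091-108361511, plus strand), the sortilin gene, had the most reads of the 6. It had 1910, 869 and 1164 reads in control and 476, 541 and 518 reads in *Mttp-IKO* pools, or 47.3, 24.1 and 36.3 CPM against 15.3, 18.5 and 21.7 CPM. The groups did not overlap, but control pool 2 was only 1.11 times *Mttp-IKO* pool 3. The mean was 35.9 ± 11.6 CPM in control and 18.5 ± 3.19 CPM in *Mttp-IKO* liver (SD, n = 3), 1.94 times lower, with a log2 fold change of -0.96 ± 0.26 (SE). It was -1.20 without control pool 2 and -1.08 without *Mttp-IKO* pool 3. Of the Sort1 exons, 329 bases (4.35%) are also covered by Gm12523 on the other strand, and the sources do not say whether strand was used in counting. No other gene of the 6 shared exonic bases with another gene.

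Of the 6 genes, 2 (Ntrk2 and Ngfr) were among the genes lower at an adjusted p under 0.05 by edgeR, against 3.09% of all genes tested, and 1 (Ntf3) was among those higher, against 0.92%. In either direction 4.01% of genes passed. The pools of the groups did not overlap for 4 members that were lower (16.5% of all genes) and 1 that was higher (14.6%). These counts follow from how the genes were selected. With 1 pool left out, Ntf3 was not among the called genes in any of the 6 cases, and Ntrk2 and Ngfr were not without *Mttp-IKO* pool 2. Over all genes 694 passed, of which 77.1% were lower, or 88.9% with scaling by total counts, which shifts the median log2 fold change of all genes from 0.006 to -0.174. Over all genes, edgeR called 24 without control pool 1, 21 without control pool 3, 55 without *Mttp-IKO* pool 1 and 0 without *Mttp-IKO* pool 2. The 18 genes of the pathway and marker lists below that passed with all pools all lost their call in each of these 4 cases. Without *Mttp-IKO* pool 3, 6 of them (Sorl1, Plat, Egr2, Pdgfrb, Fbln2 and Acta2) lost it, and without control pool 2, 4 (Furin, Pcsk5, Gfra1 and Fbln2).

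The order of the genes by level per length also differed between the groups. In control liver Sort1 came first with a mean of 4.75 RPKM (3.18 to 6.26 over the pools), followed by Ngfr at 3.20, Ntrk2 at 1.24, Ntf3 at 0.621, Ntrk3 at 0.169 and Bdnf at 0.143 RPKM. Neighbours whose pools overlapped were Sort1 and Ngfr, Ntrk2 and Ntf3, and Ntrk3 and Bdnf, so 3 tiers were separate. In *Mttp-IKO* liver Ntf3 at 3.10 RPKM and Sort1 at 2.45 RPKM overlapped at the top. Ngfr followed alone at 0.465 RPKM, and Ntrk3 at 0.0947, Bdnf at 0.0475 and Ntrk2 at 0.043 RPKM overlapped at the bottom. Ntrk2 per length was 0.467, 0.348 and 0.333 of Ngfr in control pools and 0.0579, 0.0444 and 0.185 of Ngfr in *Mttp-IKO* pools. On this scale it lay further below Ngfr in every *Mttp-IKO* pool. The lengths are of all annotated exons of a gene, 13806 nt for Ntrk2 and 3446 nt for Ngfr, so the order depends on them. In CPM, Ntrk2 lay above Ngfr in every control pool (23.7, 11.1 and 16.6 against 12.7, 7.95 and 12.4). It lay below Ngfr in every *Mttp-IKO* pool.

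**Figure D2:**
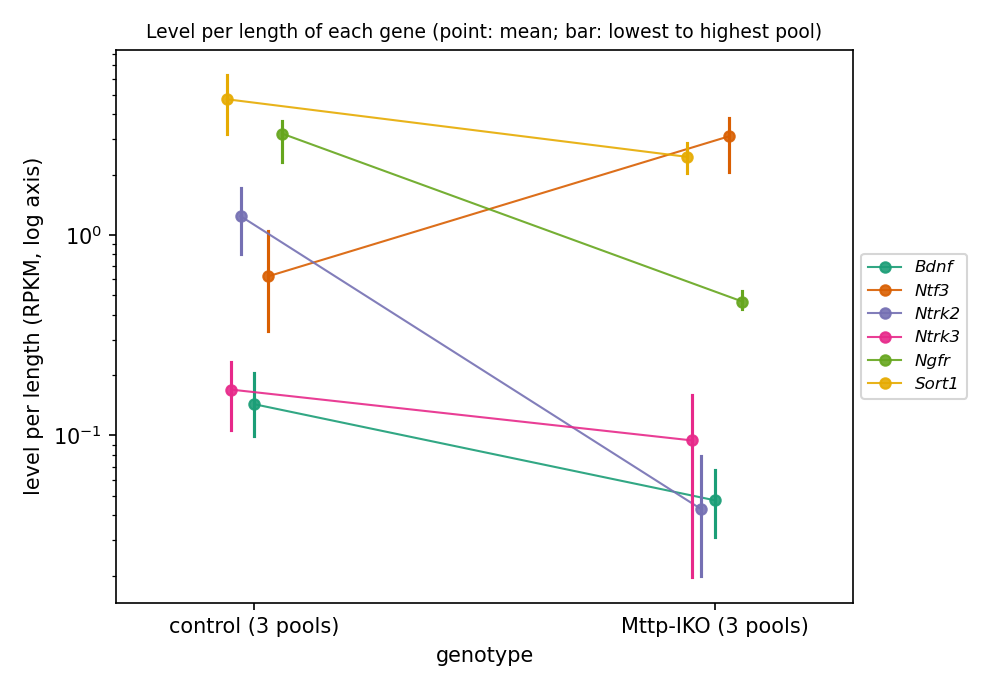
Level per length (RPKM, log axis) of the neurotrophin genes in control and *Mttp-IKO* liver, with points at the mean of 3 pools and bars from the lowest to the highest pool. Ntrk2 goes from the middle of the range (1.24 RPKM) to the bottom (0.043 RPKM), while Ntf3 goes to the top (3.10 RPKM).

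The other neurotrophins and receptors were mostly scarce. Of 8 such genes, 4 had enough reads to be tested by edgeR, of which 1 fell and 0 rose at an adjusted p under 0.05. Their median log2 fold change was -1.19, against 0.006 over all genes. The shares of all genes tested, here and for the lists below, were 3.09% lower and 0.92% higher. The gene that fell was Sorl1, whose product SorLA is a sorting receptor of the sortilin family. It had 35.4, 16.4 and 25.4 CPM in control and 9.98, 10.7 and 12.1 CPM in *Mttp-IKO* pools, with a log2 fold change of -1.24 ± 0.27 (SE) and an edgeR adjusted p of 0.0485. Over 14 alternatives its adjusted p was 0.00157 to 0.169, and 6 of them kept the call.

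Ntf5, the gene of neurotrophin-4, the other TrkB ligand, had at most 8 reads in any pool and was not tested.

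Nradd, which encodes a p75-like death domain protein, had 1.08 ± 0.573 CPM in control and 0.491 ± 0.0985 CPM in *Mttp-IKO* liver (edgeR adjusted p = 0.194). Lingo1, a co-receptor of p75 in neurons, had 0.779 ± 0.595 and 0.261 ± 0.283 CPM (edgeR adjusted p = 0.293). Sorcs2, a sortilin relative, had 0.749 ± 0.303 and 1.01 ± 0.481 CPM (edgeR adjusted p = 0.662). Those 3 genes overlapped or varied too much between pools to pass. The sortilin relatives Sorcs1 and Sorcs3 and the p75 partner Rtn4r had 0 to 12 reads per pool and were not tested.

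Proneurotrophins are cut inside the cell by furin and related convertases, and outside it by plasmin, which plasminogen activators release. Of 13 genes of this group 12 were tested, of which 2 fell and 2 rose, with a median log2 fold change of 0.12. Over all genes tested, 3.09% fell and 0.92% rose. Furin rose from 617 ± 49.1 to 1211 ± 214 CPM (SD, n = 3; log2 fold change 0.97 ± 0.20, edgeR adjusted p = 0.0435). Pcsk5, another convertase, rose from 25.1 ± 1.29 to 39.5 ± 3.80 CPM (log2 fold change 0.65 ± 0.14, edgeR adjusted p = 0.0478). Of 14 alternatives, 8 kept the Furin call and only 4 the Pcsk5 call, which was lost with total counts, upper quartile scaling, no filter and limma-voom among others.

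The genes that fell encode the plasminogen activators. Plau (urokinase) was at 13.4, 7.15 and 13.7 CPM in control and 2.09, 2.57 and 1.89 CPM in *Mttp-IKO* pools, with a log2 fold change of -2.38 ± 0.30 and an edgeR adjusted p of 0.0166. Plat (tissue plasminogen activator) was at 8.97, 3.60 and 4.55 against 2.09, 1.4 and 1.26 CPM, with a log2 fold change of -1.84 ± 0.40 and an edgeR adjusted p of 0.0476. Both genes were lower with no overlap between groups, as were 16.5% of all genes tested. Of 14 alternatives, 10 kept the Plau call and 8 the Plat call. Their substrate gene Plg, made by hepatocytes, had 1128 ± 299 CPM in control and 2058 ± 257 CPM in *Mttp-IKO* liver (edgeR adjusted p = 0.0937). The convertase genes Pcsk6 (95.4 and 137 CPM, edgeR adjusted p = 0.169) and Pcsk7 (32.8 and 34.6 CPM, edgeR adjusted p = 0.764) did not pass.

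The intracellular partners of the receptors gave no calls by edgeR. Of 20 genes of Trk adaptors and effectors 19 were tested, 0 passed in either direction, and the median log2 fold change was 0.16. The most abundant were Pik3r1, a regulatory subunit of PI 3-kinase (144 and 154 CPM in control and *Mttp-IKO* liver), Rapgef1 (104 and 130 CPM) and Ptpn11, the phosphatase SHP2 (95.2 and 104 CPM). Of 17 p75 adaptors and secretase subunits all 17 were tested and 0 passed, with a median of -0.14. Among them Sqstm1, the scaffold p62, had 746 ± 42.1 CPM in control and 488 ± 145 CPM in *Mttp-IKO* liver (edgeR adjusted p = 0.192), Arhgdia had 342 and 277 CPM, and Rhoa had 166 and 132 CPM.

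Early genes that Trk signaling induces in neurons, and that other growth factor receptors induce as well, were mostly not called. Of 13 genes 12 were tested, 1 fell and 0 rose (median log2 fold change 0.10). Egr2, a zinc finger transcription factor, fell from 7.56 ± 3.45 to 1.69 ± 0.344 CPM (SD, n = 3; log2 fold change -2.15 ± 0.39, edgeR adjusted p = 0.0306), a call that 8 of 14 alternatives kept. The related Egr1 had 99.1 ± 42.7 CPM in control and 194 ± 44.6 CPM in *Mttp-IKO* liver (edgeR adjusted p = 0.124). Dusp6, an ERK phosphatase, had 81.7 and 121 CPM (edgeR adjusted p = 0.107), and Junb had 63.6 and 72.1 CPM (edgeR adjusted p = 0.746).

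Of 14 cargo and trafficking genes of sortilin, all 14 were tested by edgeR and 0 passed in either direction (median log2 fold change 0.03). Apob had 11122 ± 415 CPM in control and 15057 ± 4101 CPM in *Mttp-IKO* liver (edgeR adjusted p = 0.373), and Apoa5 had 1669 and 1767 CPM (edgeR adjusted p = 0.862). Psap, the gene of the lysosomal protein prosaposin, had 1330 ± 390 and 670 ± 52.3 CPM (edgeR adjusted p = 0.0731).

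The 6 genes beside Sort1 on chromosome 3 gave 4 tested genes and 0 calls by edgeR, with a median log2 fold change of -0.33. Cyb561d1 (8.76 and 8.26 CPM), Atxn7l2 (4.00 and 3.81 CPM) and Celsr2 (3.56 and 2.41 CPM) were the most abundant, and their pools overlapped. The remaining tested gene, Psrc1, was lower with no overlap of pools (0.976 and 0.324 CPM, log2 fold change -1.57 ± 0.47, edgeR adjusted p = 0.101). It rests on 6 to 50 reads per pool, and 16.5% of all genes tested were lower with no overlap of pools.

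The GDNF family, a separate family of neurotrophic factors that signals through the receptor Ret, was taken for comparison. Of 9 genes 3 were tested and 1 rose (median log2 fold change 0.83). Gfra1, the GDNF co-receptor, was at 160, 191 and 192 CPM in control and 280, 373 and 507 CPM in *Mttp-IKO* pools, with a log2 fold change of 1.10 ± 0.24 and an edgeR adjusted p of 0.0478. Of 14 alternatives 7 lost this call, total counts and limma-voom among them. Ret had at most 8 reads in any pool. Gdnf had 6, 6 and 2 reads in control pools and 0 in each *Mttp-IKO* pool, too few for a test. Gfra2 (1.75 and 1.78 CPM) and Nrtn (0.702 and 1.26 CPM) did not pass.

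Over all 8 lists, 100 genes in total, 85 were tested by edgeR, of which 4 fell and 3 rose. This is 8.24% of those tested, against 4.01% of all genes, and their median log2 fold change was 0.08, against 0.006. The lists were chosen with earlier results of these data known. Of these 7 calls, 0 remained without control pool 1 or 3 or *Mttp-IKO* pool 1 or 2. At an unadjusted p under 0.05, edgeR then gave 14, 19, 26 and 20 of the pathway genes, against 22 with all pools. Without *Mttp-IKO* pool 3, 5 pathway genes passed the adjusted p, and without control pool 2, 7 did, in part other genes. At an unadjusted p under 0.05 by edgeR, these 2 cases gave 24 and 21 pathway genes.

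**Figure D3:**
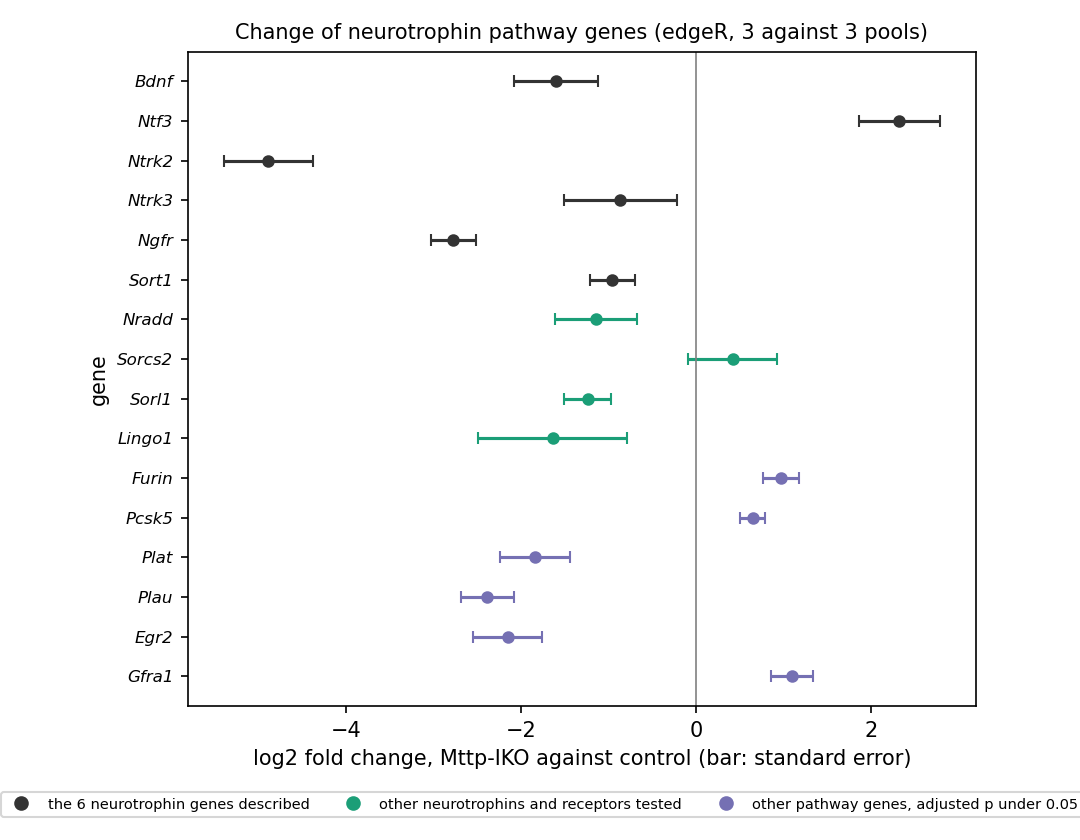
Log2 fold change of *Mttp-IKO* against control liver by edgeR (3 against 3 pools), with bars of 1 standard error, for the 6 neurotrophin genes described (black), the other neurotrophins and receptors tested (green) and further pathway genes at an adjusted p under 0.05 (violet). The points run from -4.89 for Ntrk2 to 2.33 for Ntf3, and the 2 plasminogen activators Plau and Plat lie left of 0 while the convertases Furin and Pcsk5 lie right of it.

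The RNA is of whole liver, so fewer cells of a type and less RNA per cell cannot be told apart. Over all genes tested, 3.09% fell and 0.92% rose at an adjusted p under 0.05. Of 12 stellate cell markers, all tested, 4 fell by edgeR and 0 rose. Their summed level was 949 to 1135 CPM in control and 677 to 804 CPM in *Mttp-IKO* pools. Those that fell were Lrat, which makes the stored retinyl esters (82.2, 46.1 and 72.0 against 22.3, 17 and 21.9 CPM, edgeR adjusted p = 0.0181), Colec11 (41.6 and 13.2 CPM on average, edgeR adjusted p = 0.0174), Cygb (31.1 and 13.9 CPM, edgeR adjusted p = 0.035) and Pdgfrb (47.7 and 20.7 CPM, edgeR adjusted p = 0.0379). The other defining marker, Des, had 33.2 ± 30.3 and 5.99 ± 1.20 CPM (edgeR adjusted p = 0.0622). Control pool 2, the pool with most muscle RNA, had 68 CPM of it. More abundant markers such as Reln (281 and 208 CPM) and Ecm1 (199 and 204 CPM) did not pass.

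The levels of Ntrk2, Ngfr and Sort1 were set against these markers as a description, without a test. Per 100 CPM of Lrat, Ntrk2 was at 28.9, 24.1 and 23.1 CPM in control and 1.87, 1.62 and 4.97 CPM in *Mttp-IKO* pools, with no overlap. Ngfr per 100 CPM of Lrat was at 15.4, 17.3 and 17.3 CPM in control and 8.07, 9.09 and 6.69 CPM in *Mttp-IKO* pools, also with no overlap. Within the control group both ratios varied little between pools, although Lrat itself ranged from 46.1 to 82.2 CPM. Sort1 went the other way on this scale, at 57.6, 52.3 and 50.4 CPM in control and 68.6, 109 and 99.0 CPM in *Mttp-IKO* pools.

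Against the whole stellate list the values were of the same kind for the receptors. Ntrk2 was at 20.9, 11.7 and 14.8 CPM per 1000 CPM of the list in control and 0.618, 0.347 and 1.35 CPM in *Mttp-IKO* pools. Ngfr was at 11.2, 8.38 and 11.1 against 2.66, 1.95 and 1.82 CPM. For Sort1 this ratio overlapped between groups, with means of 33.1 and 24.4 CPM.

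Of 10 portal fibroblast and smooth muscle markers, all tested, 5 fell and 0 rose by edgeR. The shares over all genes tested were 3.09% and 0.92%. The markers summed to 72.0 to 117 CPM in control and 22.5 to 33.2 CPM in *Mttp-IKO* pools. Those that fell were Fbln2 (12.1 and 4.91 CPM, edgeR adjusted p = 0.0423), Mfap4 (3.38 and 0.583 CPM, edgeR adjusted p = 0.0181), Myh11 (14.5 and 4.71 CPM, edgeR adjusted p = 0.02), Tagln (21.4 and 6.86 CPM, edgeR adjusted p = 0.0184) and Acta2 (15.6 and 3.84 CPM, edgeR adjusted p = 0.034). The paper takes Acta2 (Sma) as a marker of fibrogenic signaling, so its level need not come from portal or smooth muscle cells alone. The first markers of that list, Thy1 (2.88 and 0.976 CPM) and Eln (10.6 and 3.84 CPM), did not pass, at edgeR adjusted p-values of 0.0914 and 0.0945. Of 8 macrophage markers, all tested, 2 fell and 0 rose, and the sum was 539 to 1137 CPM in control and 349 to 419 CPM in *Mttp-IKO* pools. These were Cx3cr1 (8.99 and 1.3 CPM, edgeR adjusted p = 0.0151) and Trem2 (29.5 and 4.79 CPM, edgeR adjusted p = 0.0293), genes of recruited macrophages. Adgre1 (49.4 and 25.1 CPM, edgeR adjusted p = 0.0895) and Clec4f, which marks Kupffer cells (84.8 and 74.3 CPM, edgeR adjusted p = 0.503), did not pass. Gpnmb, the largest part of the control sum, had 436 ± 229 and 80.1 ± 42.7 CPM (edgeR adjusted p = 0.0587). The only macrophage marker with a higher mean in *Mttp-IKO* liver was Vsig4 (31.7 and 34.4 CPM, edgeR adjusted p = 0.78). The part of these cell types in the levels of Ntrk2, Ngfr, Ntf3 and Sort1 was not tested.

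Neurotrophins are best known from nervous tissue, and nerve markers were at or near 0. Of 8 neuron markers 2 had enough reads for a test and 0 passed by edgeR. Th, which defines sympathetic nerves, had 0 reads in every pool, Dbh had 0.307 and 0.0773 CPM on average, and the sum was 1.72 to 3.37 CPM in control and 0.922 to 1.42 CPM in *Mttp-IKO* pools. Of 6 Schwann cell markers 3 were tested and 0 passed, and the sum was 6.31 to 9.16 CPM in control and 3.77 to 5.95 CPM in *Mttp-IKO* pools. Their defining marker Sox10 (0.377 and 0.33 CPM) was near 0 in both groups, and most of the sum was Mbp (6.26 and 3.47 CPM, edgeR adjusted p = 0.104).

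Hepatocyte markers summed to 53439 to 86881 CPM in control and 105832 to 160378 CPM in *Mttp-IKO* pools. By edgeR 0 of 8 passed, with Alb at an adjusted p of 0.157 and Apoa1 at 0.153. Most of the sum was Alb (54086 and 104640 CPM on average). Asgr1 (273 and 322 CPM) overlapped between groups. Only Ttr had a lower mean in *Mttp-IKO* liver (3292 and 2249 CPM, edgeR adjusted p = 0.29), with no overlap of pools. Alb, Serpina1a, Cps1 and Hnf4a were higher with no overlap of pools. Over all genes tested, 14.6% were higher and 16.5% lower with no overlap. Endothelial markers summed to 409 to 445 and 392 to 451 CPM, with 0 of 7 passing. Stab2 (152 and 169 CPM) and Lyve1 (42.8 and 24.6 CPM) are the first of that list. Cholangiocyte markers summed to 30.5 to 46.7 and 22.3 to 41.2 CPM, with 0 of 5 tested genes passing, Krt19 (5.07 and 4.35 CPM) and Krt7 (3.60 and 3.39 CPM) among them. Most of this sum was Sox9 (21.6 and 23.3 CPM). Epcam (5.10 and 2.18 CPM) and Cftr (1.07 and 0.451 CPM), each at an edgeR adjusted p of 0.124, were lower with no overlap of pools. Markers of T, B and mast cells summed to 17.4 to 21.3 and 17.7 to 21.6 CPM, with 0 of 5 passing, Cd3e (2.32 and 1.64 CPM) and Cd3g (0.572 and 0.314 CPM) among them. Of 8 skeletal muscle markers 3 were tested and 0 passed, and Acta1 had 40.5, 368 and 0.218 CPM in control and 0.251 to 0.419 CPM in *Mttp-IKO* pools, while Ckm had 54.8 CPM in control pool 2.

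**Figure D4:**
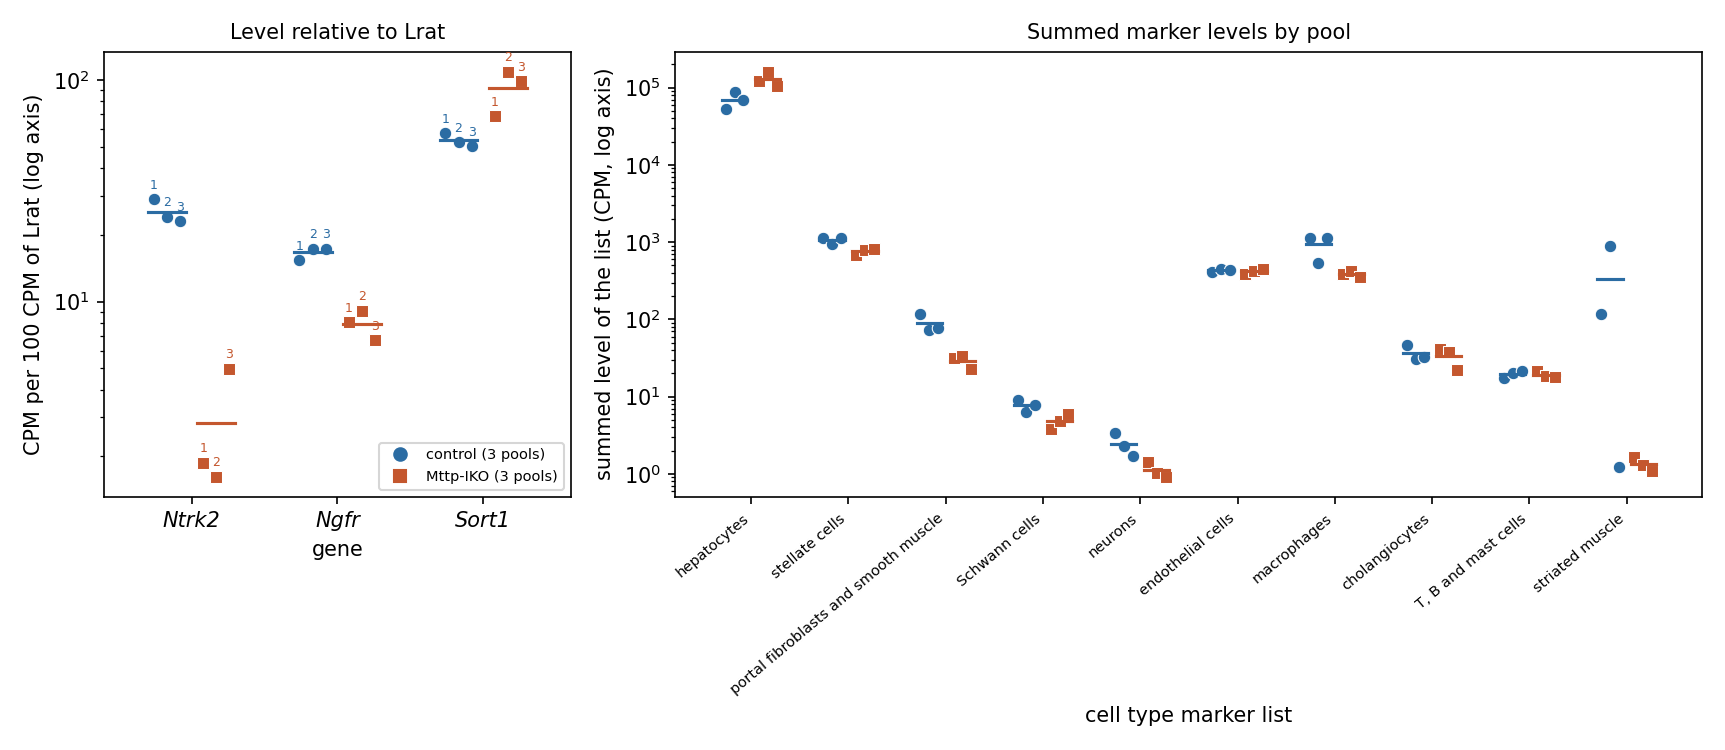
Left, level of Ntrk2, Ngfr and Sort1 in CPM per 100 CPM of the stellate cell gene Lrat in each pool (log axis). Right, summed level of each cell type marker list in each pool (CPM, log axis). Circles are control and squares *Mttp-IKO* pools, with bars at the means. Ntrk2 and Ngfr lie lower in every *Mttp-IKO* pool also relative to Lrat, Sort1 lies higher, and the muscle list is high in control pools 1 and 2.

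The protein-coding genes most alike to each neurotrophin gene were sought among 12713 with a mean of at least 1 CPM, by the root mean square difference of log2 levels over the 6 pools after each gene was centred on its mean. For Ntrk2 they were Mmp13, an interstitial collagenase (difference 0.616), and the fibrillar collagen genes Col3a1 (0.671) and Col1a1 (0.737). Col1a1 had 345, 102 and 240 CPM in control and 20.4, 12.3 and 19.1 CPM in *Mttp-IKO* pools. Like Ntrk2, it was highest in control pool 1 and lowest in control pool 2 among controls.

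For Ngfr the most alike were Capg, an actin-capping protein (0.162), Dpt, the matrix protein dermatopontin (0.165), and Col6a3, a chain of collagen VI (0.189). Dpt had 8.52, 6.20 and 8.55 CPM in control and 0.934, 0.959 and 0.838 CPM in *Mttp-IKO* pools. For Sort1 they were Gpc6, a cell surface proteoglycan (0.056), Gdf10, a TGF-beta family ligand (0.087), and Anln, an actin-binding protein of cell division (0.089). These are the closest fits of the 6 genes, and that of Ntrk2 is the loosest.

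For Ntf3 the most alike genes were Cyp3a44, a cytochrome P450 (0.396), Slc22a26, an organic anion transporter (0.406), and Nlrp12 (0.466). Cyp3a44 had 25.5, 17.8 and 46.4 CPM in control and 181, 123 and 285 CPM in *Mttp-IKO* pools. As with Ntf3, pool 3 was the highest of each group, and pool 2 was the lowest of the *Mttp-IKO* group. For Bdnf they were Tppp (0.119), the replication factor Mcm10 (0.175) and the clock repressor Nr1d1 (0.192), each of them highest in control pool 2. For Ntrk3 they were the kinase gene Blk (0.345), Igsf9 (0.366) and the transglutaminase gene Tgm1 (0.369), each of them lowest in *Mttp-IKO* pool 2. Bdnf and Ntrk3 rest on 3 to 49 reads per pool, so their order over pools is close to counting error.

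*Mttp-IKO* pool 3 also read shorter genes less than the other pools of its group. Its median log2 level against pools 1 and 2 was -1.12 over coding genes of 300 to 1000 nt, -0.46 over those of 1000 to 2000 nt and 0.08 over longer ones. Ntf3 has 1427 nt of exons and was highest in this pool, and the other members have 3446 nt or more. The part of gene length in these values was not tested.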

How the data were processed

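Liver RNA was depleted of ribosomal RNA and sequenced in 6 pools. Per the labels and the study's methods, reads were aligned with STAR 2.5.1a to GRCm38 (Ensembl release 76), and the authors deposited for each pool the count of uniquely aligned, unambiguous reads per gene by featureCounts 1.4.6-p5. Reads that fit several genes are thus missing, and whether strand was used is not given in the sources used here. The authors also deposited CPM, the count divided by the library total, and RPKM, the same per length of the gene. Both could be derived from the counts in each of the 6 files. A deposited table of all pools, with 40481 of the genes and 276 repeated lines that were dropped, gave the symbols.

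Groups and replicate numbers came from the labels. Genes were kept by filterByExpr (minimum count 10, minimum total 15), scaled by TMM (factors 0.899 to 1.11) and compared by the quasi-likelihood test of edgeR 4.0.16 in R 4.3.3, and p-values were adjusted by Benjamini and Hochberg's method over all genes tested, with a threshold of 0.05. The study's methods name no tool for this step. CPM and RPKM in the text were recomputed with TMM-scaled totals. The SE of a log2 fold change is its size divided by the square root of the F statistic. The likeness of genes was computed on log2(CPM + 0.1). The script was tested on simulated data.

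The members and all lists were chosen with earlier results of these data known. The genes named are the members, all other neurotrophins and receptors, genes of the 8 pathway lists that passed and up to 3 further of the highest mean CPM, markers that passed, the first 2 of each marker list, markers at 0 in all pools and the 3 genes most alike to each member. Further genes (Ret, Gdnf, Ecm1, Gpnmb, Vsig4, Sox9, Epcam, Cftr, Ttr, Asgr1, Serpina1a, Cps1, Hnf4a, Psrc1) were named after their values were seen. Alternatives were other scalings and filters, DESeq2 1.42.0, limma-voom (limma 3.58.1), the replicate number as a block and leaving out each pool. Promoters are from RefSeq (4 of 6 members matched), transcript numbers from GENCODE M21. Proteins were not used here. Some genes of the lists are not reported here and were left out of the list counts and sums.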

Additional observations from a re-analysis of the deposited data

How the results depend on the processing

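The log2 fold changes of the 6 neurotrophin genes kept their direction and moved by less than the spread between pools under all alternatives that gave a value, 14 for each but Ntrk3 and Bdnf, which the filter of 1 CPM removed (13). They ranged from -5.61 to -4.53 for Ntrk2, -2.98 to -2.68 for Ngfr, -1.43 to -0.37 for Ntrk3, -1.92 to -1.27 for Bdnf, 1.99 to 2.89 for Ntf3 and -1.20 to -0.73 for Sort1. For the alternatives that leave out 1 of 3 pools, staying within the spread was nearly fixed in advance, as it comes from these pools. The number of these genes past the threshold was 3 in the main test and 0 to 4 elsewhere, with Ntf3 lost without control pool 1, 2 or 3 or *Mttp-IKO* pool 1, 2 or 3, Ntrk2 and Ngfr lost without *Mttp-IKO* pool 2, and Sort1 added with DESeq2, with no filter and without control pool 2.

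The number of genes past the threshold, 694 with edgeR, was 1995 with DESeq2, 428 with limma-voom and 0 to 892 with 1 pool left out. It was 24 without control pool 1, 21 without control pool 3, 55 without *Mttp-IKO* pool 1 and 0 without *Mttp-IKO* pool 2, where 3221 genes had an unadjusted p under 0.05. Of the pathway genes, 7 passed with edgeR, 13 with DESeq2, 2 with limma-voom and 0 to 7 with 1 pool left out. The summed endothelial markers of the control pools moved from 431 to 458 CPM with total counts. With the replicate number as a replicate block, 595 genes and 4 of the pathway genes passed, and the calls of Furin, Pcsk5, Sorl1, Pdgfrb and Trem2 were lost. Deviations of same-numbered pools from their group means correlated only weakly, at 0.139, 0.112 and 0.00698. Such values cannot tell whether same-numbered pools were handled together. The cause of these differences was not tested. Depth limits Bdnf and Ntrk3, at 3 to 49 reads per pool, and also Ntf3 in control (19 to 48 reads) and Ntrk2 in *Mttp-IKO* liver (8 to 26 reads).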
